A study of Mus musculus with 9 samples.

Results

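The 54 genes described here encode the proteins of the main DNA repair pathways and of the damage signalling that controls them. They were chosen by symbol, and all 54 were found among the 45706 gene identifiers of the count table. They fall into 7 lists: homologous recombination (11 genes), the Fanconi anaemia pathway (8), mismatch repair (3), end joining (6), base excision and single-strand break repair (12), nucleotide excision (9) and damage signalling (5). The first 3 lists, 22 genes, work mainly on newly copied DNA and are called replication-linked below. End joining and the excision pathways, 27 genes, also act in cells that do not divide.

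Homologous recombination copies the sister chromatid to mend a double-strand break, the Fanconi pathway unhooks crosslinks that stall replication forks, and mismatch repair corrects errors left by the DNA polymerase. End joining seals broken ends without a template at any point of the cell cycle. Base excision removes small oxidised, deaminated or alkylated bases, and nucleotide excision cuts out bulky lesions, including those that stop RNA polymerase on transcribed genes. Inherited defects in the single-strand break and transcription-coupled branches are known to cause neurological disease, and neural progenitors are sensitive to loss of the replication-linked factors.

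RNA was sequenced from untreated C57BL6/J mouse central nervous system, with 3 libraries from each of the embryonic stages E9.5 and E14.5 (days of gestation) and 3 from adults of postnatal day 60 (P60). The E9.5 samples were heads cut behind the 4th ventricle and trimmed of much of the tissue that is not neuroectoderm, the E14.5 samples were brains stripped of meninges, and the P60 samples were taken after perfusion with saline. All were labelled as whole tissue, no genotype other than the strain was given, and each library held 30481975 to 35619093 counts. Dissection changed with age, so the effects of age and dissection cannot be told apart.

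Expression is given as CPM, the counts scaled to a common library size, adjusted between libraries by the trimmed mean of M-values. A gene was called when its adjusted p was under 0.05 in edgeR's quasi-likelihood test, adjusted by Benjamini-Hochberg for the 17971 genes tested. All 54 genes entered the test. Errors of means are SD over n = 3 libraries, and errors of fitted log2 fold changes are SE. Whether the 3 libraries of a stage came from separate animals is not stated, and the p-values therefore reflect only how much these libraries varied. In whole tissue, fewer cells of a type and less RNA per cell cannot be told apart.

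Libraries of a stage were alike, with correlations of log2 CPM between 0.98 and 0.995, but they differed in a way that followed transcript length. Across 17889 genes, the deviation of a library from its stage mean was related to exonic length with a Spearman rho of -0.313, 0.221 and 0.251 in E9.5 replicates 1 to 3. The values were -0.425, 0.377 and 0.34 for E14.5, then -0.235, 0.463 and -0.429 for P60. Replicate 1 of E14.5 therefore read low for long genes: the 27 members with at least 5254 bases of exon had a median deviation of -0.13 log2 units there, against 0.12 for the 27 shorter ones. In replicate 1 of E9.5 the medians of the longer and shorter members were -0.14 and 0.03. At P60 they were 0.06 and -0.11 in replicate 2, and -0.05 and 0.09 in replicate 3. The trend was not corrected for, and the spread of adult libraries and ratios of genes of unlike length can hold it. Results that rest on replicate 1 of E14.5 are given below with and without it.

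The tissue markers matched the labels, with markers of other tissue present in the embryonic samples, most of all at E9.5. The summed level of 18 genes of dividing cells was 6760 to 6940 CPM at E9.5, then 1620 to 1910 at E14.5, and then 113 to 144 at P60, and all 18 fell in each comparison. Mature neuron markers (7 genes) summed to 27.9 to 33.1, 474 to 546 and 7970 to 9680 CPM, and oligodendrocyte markers (7 genes) to 60.9 to 62.7, 64.1 to 88.8 and 13600 to 16000 CPM. Erythroid genes (5) summed to 2610 to 3550, 245 to 448 and 5.26 to 18.2 CPM, surface epithelium genes (6) to 197 to 301, 12.8 to 14.4 and 6.93 to 13.6 CPM, and mesenchyme and neural crest genes (6) to 253 to 340, 128 to 339 and 43.0 to 63.3 CPM. The mesenchyme and neural crest sum varied between the E14.5 libraries, with 128, 187 and 339 CPM in replicates 1 to 3. The part that these cell types had in the repair gene values was not tested.

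Most repair genes fell from E9.5 to E14.5 and again to adulthood, and they did so over a wide range of sizes. From E9.5 to E14.5, 42 of the 54 were lower and 4 higher, where 30.7% of all tested genes were lower and 34% higher. At least 2-fold decreases were called for 31 members, against 18.1% of all genes. From E14.5 to P60, 37 members were lower and 6 higher (all genes: 39.4% lower and 36.7% higher), and 29 were lower by at least 2-fold (all genes: 29.7%). Over the whole interval, 45 members were lower and 4 higher at P60 than at E9.5 (all genes: 40.6% lower and 42% higher), with 39 lower by at least 2-fold (all genes: 32.5%). The median log2 fold changes of the members were -1.10, -1.17 and -2.14 in these comparisons, beside 0.03, -0.06 and 0.05 for all tested genes. The comparisons share libraries, so they are not independent of each other.

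**Figure D1:**
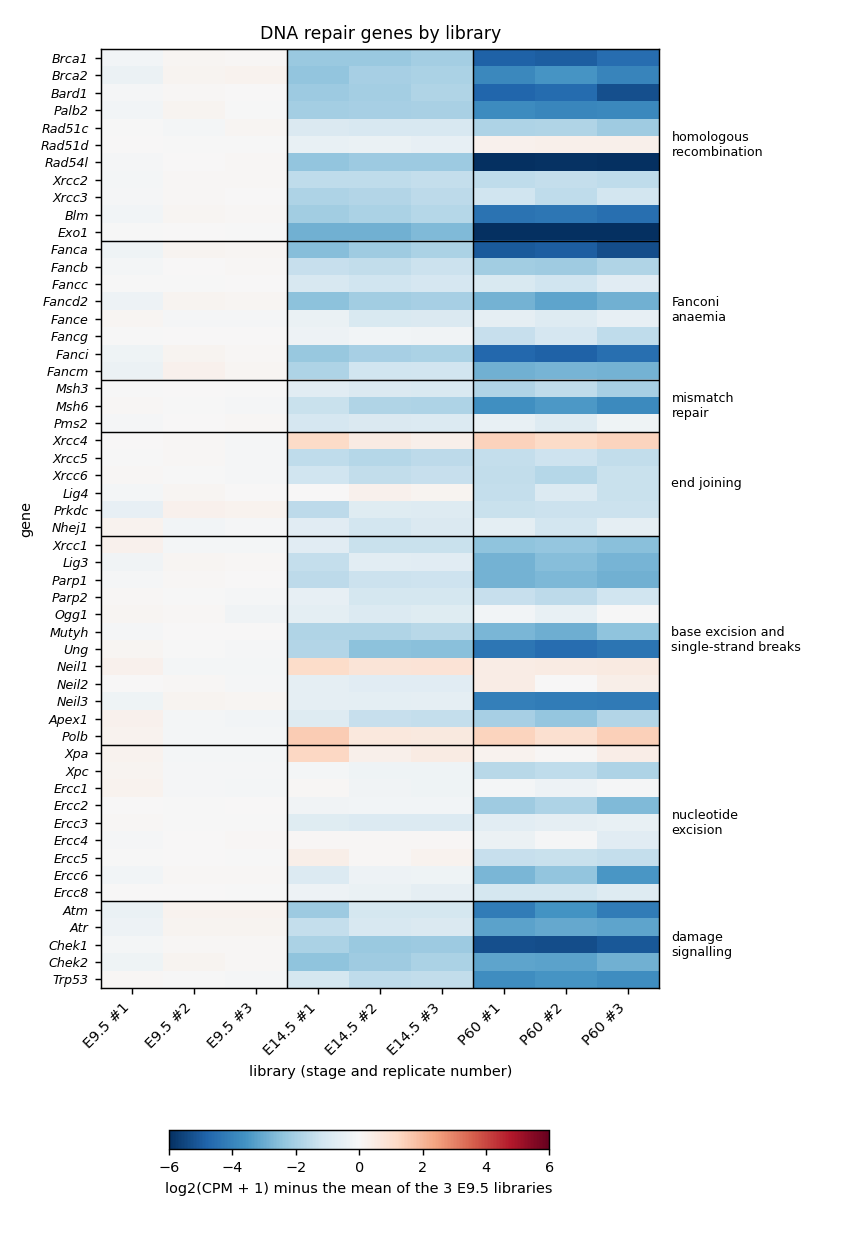
Each row is a repair gene and each column a library; colour gives log2(CPM + 1) minus the mean of the 3 E9.5 libraries, with differences below -6 drawn in the darkest blue. Most rows turn blue at E14.5 and darker at P60, while Xrcc4 and Polb are light red at P60 and Rad51d, Neil1 and Ercc1, among others, stay pale.

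The 3 classes of genes had different median levels left in the adult. The median P60 level was 11.9% of the E9.5 level for replication-linked genes, 37.5% for end joining and excision genes and 7.57% for signalling genes. Single genes overlapped widely between classes, with ranges of 0.166 to 123%, 0.591 to 267% and 1.3 to 9.92%. Within the first class the medians were 3.78% for homologous recombination, 16.2% for the Fanconi genes and 28.7% for mismatch repair. End joining kept a median of 40.1%, base excision 21.1% and nucleotide excision 50.4%. The replication-linked genes held 36.8 to 38.7% of the summed CPM of the 54 genes at E9.5, 26.2 to 27.4% at E14.5 and 25.2 to 25.6% at P60. End joining and excision genes went from 47.5 to 50.4% at E9.5 to 60.8 to 63.0% and then 70.0 to 70.6%, and signalling genes from 12.8 to 13.9% to 10.8 to 11.8% and then 3.96 to 4.72%. The libraries of a stage did not overlap those of another stage in any of these shares. Parp1, the most abundant member, weighs most in them.

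In counts of calls, 21 of the 22 replication-linked genes fell from E9.5 to E14.5, 16 fell and 3 rose from E14.5 to P60, and 21 were lower and 1 higher at P60 than at E9.5. Of the 27 end joining and excision genes, 16 fell and 4 rose in the first step, 16 fell and 3 rose in the second, and 19 were lower and 3 higher over both. All 5 signalling genes fell in each comparison. The lower shares were 95.5%, 72.7% and 95.5% for replication-linked genes and 59.3%, 59.3% and 70.4% for end joining and excision. Over all tested genes they were 30.7%, 39.4% and 40.6%. The higher shares were 0%, 13.6% and 4.55%, then 14.8%, 11.1% and 11.1%, against 34%, 36.7% and 42% of all genes. Median log2 fold changes for the 3 comparisons were -1.74, -1.41 and -3.08 for the replication-linked genes, -0.77, -0.55 and -1.41 for end joining and excision, and -1.39, -2.39 and -3.72 for signalling. With a library left out, the count of lower replication-linked genes stayed at 21, 16 and 21, and that of end joining and excision genes at 14 to 16, 14 to 16 and 19 to 20. The small counts of higher genes moved more. Without replicate 2 of E14.5, for example, 1 replication-linked gene and 1 end joining or excision gene rose from E14.5 to P60.

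**Figure D2:**
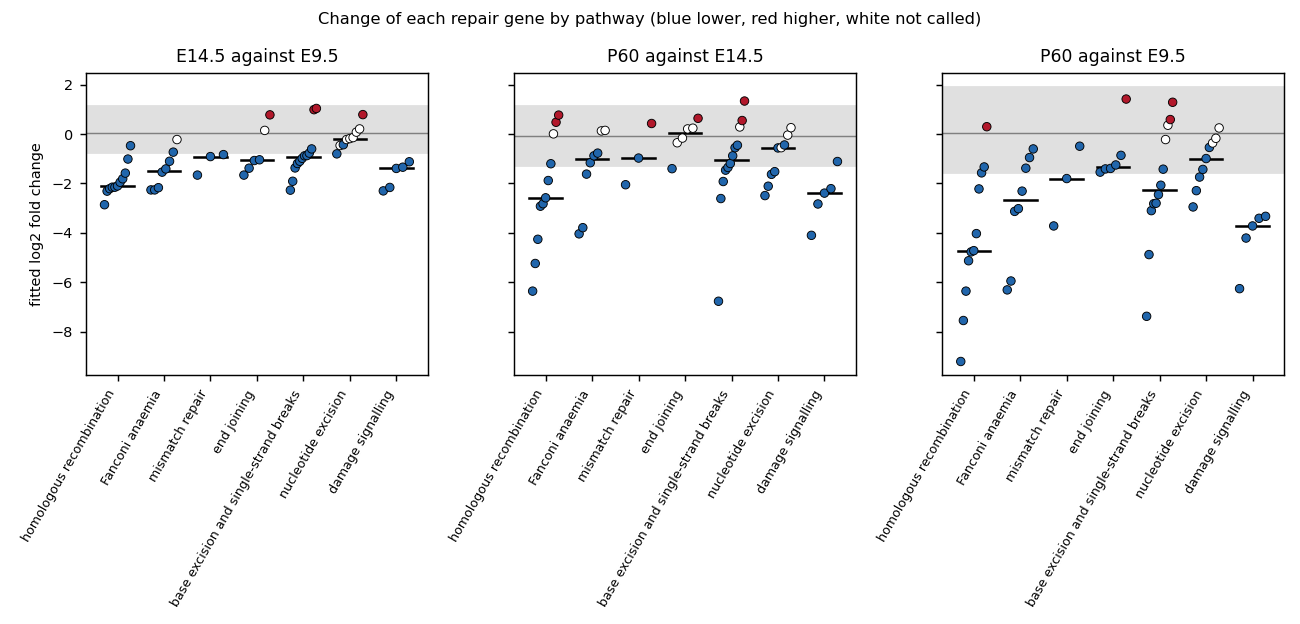
Each point is a gene, placed by pathway list, with its fitted log2 fold change on the vertical axis in the comparison named above each panel; bars are list medians, and the grey band with its line spans the quartiles and median of all 17971 tested genes. Homologous recombination reaches a median of -4.72 for P60 against E9.5, below the grey band, whereas the median of nucleotide excision, -0.99, lies inside it.

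The decrease of repair genes ran beside that of the dividing-cell markers but was mostly smaller, except for homologous recombination from E9.5 to E14.5. The 18 markers had median log2 fold changes of -1.92, -5.40 and -7.57 in the 3 comparisons. From E9.5 to E14.5, 10 of 22 replication-linked genes fell by more than that median, and 1 of 27 end joining and excision genes and 2 of 5 signalling genes did. Of the 11 homologous recombination genes 7 did, with a list median of -2.10. In the comparison of P60 with E14.5, 1 replication-linked gene, Exo1, and 1 excision gene, Neil3, lay below the marker median, and 0 signalling genes. For P60 against E9.5 the counts of the 3 classes were 1, again Exo1, 0 and 0. The part that the loss of dividing cells had in these changes was not tested.

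The promoters of some replication-linked genes hold the letters that E2F factors, the regulators of S-phase genes, are known to bind. The windows were taken from RefSeq (build GRCm38.p6), 250 bases before to 50 after each start, and 45 of the 54 genes had one. Exo1 and Fancd2 were among those without a window. Any of TTTCCCGC, TTTGGCGC, TTTCGCGC or TTTGCCGC on either strand counted as a match. The 250 upstream bases of 4 matching genes that fell, and of Xrcc4, which rose and holds none, are shown 5′ to 3′ along the gene's strand, with the matching letters in capitals. Brca2 lies at chr5:150522371-150522620 on the + strand, Bard1 at chr1:71102973-71103222 on the - strand, Chek2 at chr5:110839733-110839982 on the + strand, Xrcc6 at chr15:82016119-82016368 on the + strand and Xrcc4 at chr13:90089609-90089858 on the - strand.
Brca2: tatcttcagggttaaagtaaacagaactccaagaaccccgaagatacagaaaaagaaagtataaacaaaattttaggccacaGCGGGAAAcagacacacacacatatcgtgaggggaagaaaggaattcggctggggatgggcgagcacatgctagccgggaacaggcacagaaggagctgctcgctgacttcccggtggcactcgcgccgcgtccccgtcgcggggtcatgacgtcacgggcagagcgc
Bard1: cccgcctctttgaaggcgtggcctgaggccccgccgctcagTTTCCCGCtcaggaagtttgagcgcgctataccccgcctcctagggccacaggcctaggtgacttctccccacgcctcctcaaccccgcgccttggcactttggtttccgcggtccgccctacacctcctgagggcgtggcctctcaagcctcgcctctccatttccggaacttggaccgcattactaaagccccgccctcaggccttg
Chek2: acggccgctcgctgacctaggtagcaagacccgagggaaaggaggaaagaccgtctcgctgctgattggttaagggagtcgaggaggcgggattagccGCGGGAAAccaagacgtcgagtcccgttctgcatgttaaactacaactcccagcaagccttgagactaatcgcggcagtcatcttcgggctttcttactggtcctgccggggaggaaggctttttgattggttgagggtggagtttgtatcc
Xrcc6: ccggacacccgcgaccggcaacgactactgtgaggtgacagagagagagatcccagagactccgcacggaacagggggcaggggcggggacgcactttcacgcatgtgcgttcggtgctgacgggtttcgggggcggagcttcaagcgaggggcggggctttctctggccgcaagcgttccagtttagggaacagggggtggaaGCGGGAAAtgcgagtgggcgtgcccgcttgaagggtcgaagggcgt
Xrcc4: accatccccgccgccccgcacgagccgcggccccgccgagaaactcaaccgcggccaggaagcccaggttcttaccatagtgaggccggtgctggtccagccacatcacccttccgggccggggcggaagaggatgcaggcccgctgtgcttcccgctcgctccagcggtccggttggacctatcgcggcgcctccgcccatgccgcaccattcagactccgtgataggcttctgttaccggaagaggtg

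The match starts 168 bases before the start in Brca2, 209 in Bard1, 152 in Chek2 and 46 in Xrcc6. The letters were present in 6 of 18 replication-linked windows (33.3%: Brca2, Bard1, Rad51c, Fancg, Msh3 and Msh6), in 1 of 22 end joining and excision windows (4.55%: Xrcc6) and in 1 of 5 signalling windows (Chek2). They occurred in 3.75% of the 12946 tested genes with a window and in 2.32% of all 27025 windows.  Among the 12 genes with a window and a log2 fold change of -4 or lower for P60 against E9.5, 2 held them (16.7%), against 6 of the other 33 (18.2%). CCAAT, which NF-Y is known to bind, stood in 66.7% of replication-linked, 50% of end joining and excision and 60% of signalling windows, against 37.9% of tested genes. The NRF1 letters GCATGCGC stood in 11.1%, 22.7% and 20.0%, against 4.79% of tested genes. TTTGAA, the element known from genes of mitosis, was in 5.56%, 4.55% and 0%, against 12%, and the ETS letters CCGGAAGT in 5.56%, 13.6% and 0%, against 7.07%. These matches describe the letters in the windows and were not tested.

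Among the homologous recombination genes, Exo1 and Rad54l had the largest decreases. Exo1, the exonuclease that resects broken ends and also acts in mismatch repair, stood at 135, 139 and 133 CPM at E9.5, then 17.8, 17.6 and 20.9 at E14.5, and then 0.267, 0.264 and 0.147 at P60. Every library of a later stage lay below every library of the earlier one, and the 3 adult libraries together held 22 reads. Its log2 fold change was -2.86 ± 0.15 to E14.5 (adjusted p = 6.8e-08), -6.36 ± 0.21 from there to P60 (adjusted p = 4.6e-09) and -9.21 ± 0.22 in all (adjusted p = 3.8e-10). Rad54l, a motor protein that acts in strand invasion, had 87.2, 94.9 and 95.7 CPM, then 16.9, 19.5 and 19.5, then 0.467, 0.529 and 0.471. The stages again did not overlap, and the adult level was 188-fold below that at E9.5 (log2 fold change -7.55 ± 0.18, adjusted p = 3.7e-10). Rad54l shares 15.4% of its exonic length with Lrrc41 on the opposite strand, which had 22.8 ± 5.16 CPM at P60.

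Brca1 and Bard1, which form a ubiquitin ligase that promotes resection, both fell in each step. Brca1 had 106, 128 and 126 CPM at E9.5, then 25, 24.4 and 28.5 at E14.5, and then 3.20, 2.97 and 4.13 at P60. Its decrease was 4.63-fold to E14.5 and 35-fold to P60 (log2 fold change -5.13 ± 0.18, adjusted p = 1.4e-09). Bard1 went from 40.7, 44.5 and 44.0 CPM to 8.80, 9.79 and 11.6 and then to 0.633, 0.793 and 0.147, a fall of 81.9-fold in all (log2 fold change -6.36 ± 0.38, adjusted p = 4.2e-08). The stages of both genes were fully separated, with the widest relative spread in the adult libraries of Bard1. Brca1 over Bard1, as a log2 ratio taken on CPM + 1, was 1.46 ± 0.08, 1.29 ± 0.10 and 1.56 ± 0.53, and no difference between stages was found (exact permutation test over the 1680 assignments of 9 libraries, adjusted p = 0.736 over 15 pairs). The adult ratio leans on the added 1 CPM, and with 0.1 CPM added instead the ratio was 1.21 higher at P60 than at E9.5 (adjusted p = 0.0119).

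Brca2, a mediator of strand exchange, Palb2, which links BRCA1 to BRCA2, and Blm, the helicase that dissolves crossed-over intermediates, were lower at P60 than at E9.5 by 16.3-, 26.4- and 27.4-fold. Brca2 was at 65.9, 95.2 and 97.9 CPM at E9.5, at 15.8, 20.5 and 21.9 at E14.5 and at 4.8, 6.46 and 4.57 at P60, so that it kept 6.12% of its E9.5 level.

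Rad51c, Rad51d, Xrcc2 and Xrcc3, subunits of the paralog complexes that assist strand exchange, moved much less and in different ways. Rad51d had 21.5, 20.9 and 20.5 CPM at E9.5, then 15.3, 15.4 and 14.7 at E14.5, and then 25, 26.3 and 26.3 at P60. The middle stage was lowest and the adult highest, with no overlap. It fell to E14.5 (log2 fold change -0.47 ± 0.12, adjusted p = 0.0048) and rose from E14.5 to P60 (0.77 ± 0.12, adjusted p = 0.00013). The difference between P60 and E9.5, 0.30 ± 0.12 (adjusted p = 0.033), lost its call under 7 of the alternatives (0.26 to 0.32, adjusted p 0.052 to 0.11): library totals as the scale, and leaving out any replicate of E9.5, replicate 2 or 3 of E14.5 or replicate 3 of P60. Xrcc2, its partner in the BCDX2 complex, had 30.1, 34.3 and 34.0 CPM, then 10.6, 10.7 and 11.7, then 10.7, 11.7 and 10.7. It fell to E14.5 (-1.58 ± 0.13, adjusted p = 1.7e-06), and from E14.5 to P60 its libraries overlapped fully (0.01 ± 0.13, adjusted p = 0.97). The log2 ratio of Rad51d to Xrcc2 thus went from -0.62 ± 0.13 to 0.43 ± 0.11 and 1.16 ± 0.06 (exact permutation test, adjusted p = 0.00765).

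Xrcc3 and Rad51c make up the other paralog complex. Xrcc3 had 30.4, 33.6 and 32.0 CPM at E9.5, then 8.23, 8.87 and 10.2 at E14.5, and then 13.3, 10.4 and 14.4 at P60. It fell to E14.5 (-1.81 ± 0.16, adjusted p = 2.9e-06) and was higher at P60 than at E14.5 by 0.48 ± 0.16 (adjusted p = 0.017), a call lost with library totals as the scale and without replicate 2 of E14.5, replicate 1 of P60 or replicate 3 of P60 (0.34 to 0.45, adjusted p 0.058 to 0.079). Rad51c fell in both steps, from 15.5 ± 1.5 to 7.67 ± 0.411 and 3.33 ± 0.509 CPM. On the log2 scale the ratio of Rad51c to Xrcc3 was -1.0 ± 0.17, -0.22 ± 0.20 and -1.66 ± 0.37 (adjusted p = 0.00765), highest at E14.5. In all, 10 of the 11 recombination genes were lower at P60 than at E9.5 (90.9%, against 40.6% of all genes). Of these, Xrcc2, Xrcc3 and Rad51c kept 33.6%, 39.7% and 21.5%, the most.

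**Figure D3:**
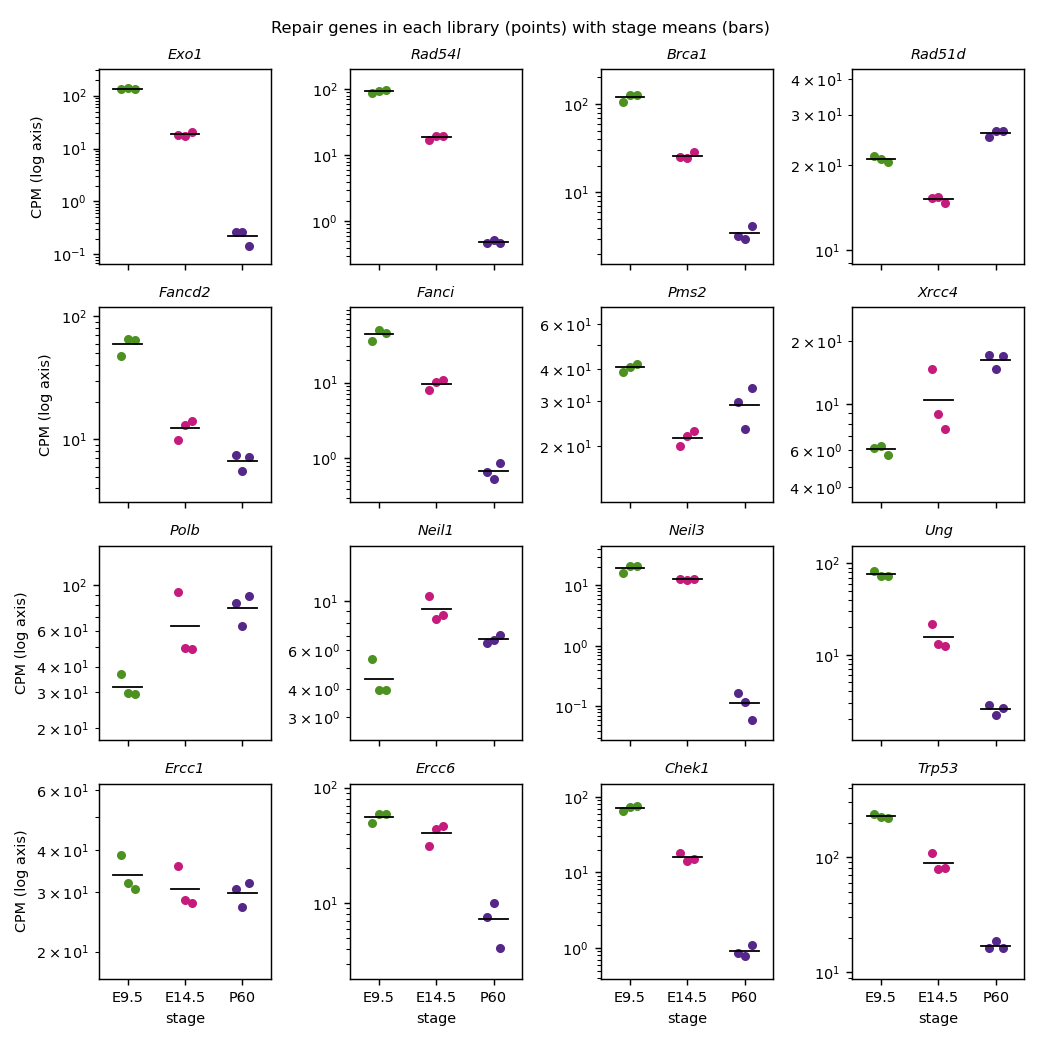
CPM of 16 repair genes in each library (points, log axes that differ between panels) with bars at stage means. Exo1, Rad54l, Neil3 and Chek1 lose most of their reads by P60, Rad51d and Pms2 are lowest at E14.5, Xrcc4 and Polb are higher at both later stages than at E9.5, and Ercc1 overlaps between all stages.

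In the Fanconi pathway, 7 of 8 genes fell to E14.5 (87.5%, against 30.7% of all genes). From E14.5 to P60, 6 fell (75%, against 39.4%), and all 8 were lower at P60 than at E9.5 (against 40.6%). Fanca, a subunit of the core ubiquitin ligase, had 49.5, 67.2 and 64.0 CPM at E9.5, then 9.41, 12.9 and 15.3 at E14.5, and then 0.833, 0.940 and 0.501 at P60. Its stages did not overlap, and the log2 fold change over the whole interval was -6.31 ± 0.29 (adjusted p = 6.7e-09). Fanca shares 10.5% of its exonic length with Zfp276 on the opposite strand, which had 10.2 ± 1.37 CPM at P60.

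Fancd2 and Fanci form the clamp that the core complex ubiquitinates at a crosslink, yet their adult levels differed. Fancd2 had 47.8, 65.1 and 64.4 CPM, then 9.83, 13.2 and 14.1, then 7.47, 5.58 and 7.16. Fanci had 35.6, 48.9 and 45.2 CPM, then 7.93, 10.2 and 10.7, then 0.667, 0.529 and 0.884. To E14.5 their log2 fold changes were -2.26 ± 0.20 and -2.17 ± 0.20, and from there to P60 they were -0.88 ± 0.20 (adjusted p = 0.0018) and -3.79 ± 0.24 (adjusted p = 1.6e-07). The log2 ratio of Fancd2 to Fanci was 0.44 ± 0.05 at E9.5, 0.33 ± 0.05 at E14.5 and 2.19 ± 0.14 at P60 (exact permutation test, adjusted p = 0.00765). With 0.1 CPM added in place of 1, the difference between P60 and E9.5 was 2.67 rather than 1.75 (adjusted p = 0.00893). Fanci shares 16% of its exonic length with Polg on the opposite strand, which had 43.0 ± 5.94 CPM at P60, far above the adult reads of Fanci.

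Fancc and Fance, further core subunits, and Fancg kept more of their expression. Fance had 39.7, 34.9 and 34.6 CPM at E9.5, then 27.4, 18.7 and 19.6 at E14.5, and then 25.1, 21.1 and 25.8 at P60, the smallest overall change of the list (-0.60 ± 0.17, adjusted p = 0.0069). Fancc went from 29.3 ± 0.864 to 13.7 ± 1.39 and 15.2 ± 2.88 CPM, and its last 2 stages overlapped. It shares 16.4% of its exonic length with Gm16133 on the opposite strand, which had 0.032 ± 0.0334 CPM at P60. Fancg held on through the first step, with 22.8, 23.5 and 23.5 CPM at E9.5 and 18.9, 20.8 and 20.1 at E14.5 (-0.22 ± 0.16, adjusted p = 0.25), and fell to 8.20, 11.2 and 7.40 at P60 (-1.16 ± 0.17, adjusted p = 7.7e-05). Fancb and Fancm, the latter the translocase that recognises stalled forks, fell in both steps and were 4.96- and 8.12-fold lower at P60 than at E9.5.

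The 3 mismatch repair genes parted in the adult. Msh6, which serves to find single mismatches, had 291, 270 and 262 CPM at E9.5, then 108, 77.3 and 75.2 at E14.5, and then 20.3, 24.2 and 18.2 at P60 (-3.72 ± 0.19 in all, adjusted p = 1.5e-08). Msh3, which serves to find larger loops and is known for its part in repeat expansion, fell less, from 65.6 ± 2.01 to 36.8 ± 3.05 and 18.8 ± 3.39 CPM (-1.80 ± 0.15, adjusted p = 8.5e-07). Their log2 ratio, Msh6 over Msh3, went from 2.05 ± 0.11 to 1.20 ± 0.17 and 0.15 ± 0.05 (adjusted p = 0.00765), with no overlap between stages. Pms2, part of the nuclease that acts after recognition, had 39.2, 40.8 and 42.1 CPM, then 20.0, 21.9 and 22.9, then 29.9, 23.4 and 33.8. It fell to E14.5 (-0.91 ± 0.15, adjusted p = 0.00035). Its higher adult level (0.43 ± 0.15, adjusted p = 0.026) lost the call with library totals as the scale and without replicate 1 or 2 of E14.5 or replicate 1 or 3 of P60 (0.29 to 0.43, adjusted p 0.059 to 0.12). The difference between P60 and E9.5 (-0.49 ± 0.15, adjusted p = 0.012) lost it under 3 alternatives of scaling, filter or fit (-0.41 to -0.33, adjusted p 0.051 to 0.086).

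End joining changed mainly in the first step. Xrcc5 and Xrcc6 encode the KU heterodimer that caps broken ends. Xrcc5 had 75.6, 79.8 and 73.3 CPM at E9.5, then 25.5, 22.2 and 24.8 at E14.5, and then 27.2, 31.8 and 27.0 at P60. Xrcc6 had 87.4, 82.0 and 80.5 CPM, then 35.8, 29.3 and 31.2, then 29.5, 24.5 and 32.1. Both fell to E14.5, by 1.66 ± 0.13 and 1.38 ± 0.15 on the log2 scale, and neither passed the test from E14.5 to P60 (0.24 ± 0.13, adjusted p = 0.10, and -0.16 ± 0.14, adjusted p = 0.33). The P60 libraries of Xrcc5 lay above those of E14.5. This rise was called with median-of-ratios or upper quartile scaling and with DESeq2 (0.33 to 0.40, adjusted p 0.01 to 0.027). The log2 ratio of Xrcc5 to Xrcc6 was -0.13 ± 0.08, -0.39 ± 0.08 and 0.00 ± 0.32 (exact permutation test, adjusted p = 0.125, and 0.0469 or 0.0134 without replicate 2 or 3 of P60).

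Prkdc, the DNA-dependent protein kinase recruited by KU, had 31.8, 53.4 and 51.6 CPM at E9.5, then 14.3, 26.4 and 25.7 at E14.5, and then 17.0, 17.3 and 17.8 at P60. Replicate 1 was low in both embryonic stages, as it was for long genes in general. The decrease to E14.5 was -1.04 ± 0.25 (adjusted p = 0.0039) with all libraries and -0.80 without replicate 1 of E14.5 (adjusted p = 0.007). From E14.5 to P60 the change of -0.35 ± 0.25 was not called (adjusted p = 0.23), but without that library it was -0.59 (adjusted p = 0.023). Nhej1, the filament protein XLF, had 8, 5.90 and 6.29 CPM, then 3.86, 2.57 and 3.16, then 4.13, 2.61 and 4.36. Its level fell to E14.5 (-1.07 ± 0.25, adjusted p = 0.0029) and kept 55.0% of its E9.5 level at P60.

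Xrcc4 rose while the ligase it binds fell. Xrcc4, the scaffold of the end joining ligase, had 6.16, 6.30 and 5.71 CPM at E9.5, then 14.7, 8.98 and 7.59 at E14.5, and then 17.1, 14.6 and 16.9 at P60. The adult libraries lay above all at E9.5, while replicate 1 of E14.5 reached the adult range. Its rise from E9.5 to P60 was 1.42 ± 0.23 (2.68-fold, adjusted p = 0.00016). The rise to E14.5 was 0.78 ± 0.23 (adjusted p = 0.011) and, without replicate 1 of E14.5, 0.46 (adjusted p = 0.025). That from E14.5 to P60 was 0.64 ± 0.23 (adjusted p = 0.024), 0.96 without that library (adjusted p = 0.00031), and was lost without replicate 2 or 3 of E14.5 or replicate 1 or 3 of P60 (0.44 to 0.60, adjusted p 0.055 to 0.099). Lig4, the ligase, had 21, 25.3 and 23.2 CPM, then 23.5, 27.5 and 26.2, then 7.90, 12.8 and 8.55. It was not called in the first step (0.15 ± 0.19, adjusted p = 0.49) and fell in the second (-1.40 ± 0.19, adjusted p = 5.4e-05). Xrcc4 over Lig4, as a log2 ratio, went from -1.77 ± 0.13 to -1.27 ± 0.55 and 0.70 ± 0.46 (adjusted p = 0.0134).

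The glycosylases that open base excision repair by removing the damaged base showed both large falls and some of the few rises. Neil3, which acts on replicating DNA and crosslinks, had 16.1, 21.3 and 20.6 CPM at E9.5, then 12.9, 12.5 and 12.7 at E14.5, and then 0.167, 0.117 and 0.0589 at P60. Its adult libraries held 11 reads in all, 109-fold below E14.5 (-6.77 ± 0.28, adjusted p = 9.7e-09). The small first step (-0.60 ± 0.18, adjusted p = 0.011) was not called without replicate 2 of E9.5 (-0.53, adjusted p = 0.053). Neil1, a glycosylase for oxidised pyrimidines, went from 5.49, 3.98 and 3.96 CPM to 10.6, 8.34 and 8.69 and then to 6.5, 6.67 and 7.01. It rose to E14.5 (1.04 ± 0.19, adjusted p = 0.00053), where all libraries lay above the other stages, and its later decrease (-0.45 ± 0.18, adjusted p = 0.041) lost the call under 10 alternatives, among them leaving out replicate 1 or 3 of E14.5 or any replicate of P60 (-0.50 to -0.29, adjusted p 0.058 to 0.17). It was 1.5-fold higher at P60 than at E9.5 (adjusted p = 0.012, and 0.057 to 0.058 without replicate 2 or 3 of E9.5). The log2 ratio of Neil3 to Neil1 went from 1.89 ± 0.43 to 0.43 ± 0.15 and -2.79 ± 0.12 (adjusted p = 0.00765). The difference between P60 and E9.5 was -4.69 with 1 CPM added and -7.12 with 0.1 CPM added (adjusted p = 0.00893).

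Ung, which removes uracil from DNA, changed far more than Ogg1, which removes oxidised guanine. Ung had 81.8, 73.4 and 71.9 CPM at E9.5, then 21.5, 13.0 and 12.6 at E14.5, and then 2.83, 2.23 and 2.62 at P60, a 29.5-fold fall (-4.88 ± 0.24, adjusted p = 1.2e-08). Ogg1 had 17.4, 16.6 and 13.8 CPM, then 10.2, 8.53 and 9.32, then 14.1, 11.2 and 15.8. It fell to E14.5 (-0.77 ± 0.17, adjusted p = 0.0024) and was higher again at P60 (0.55 ± 0.17, adjusted p = 0.012), a call lost without replicate 2 of E14.5 or replicate 3 of P60 (0.43 to 0.48, adjusted p 0.052 to 0.055). P60 overlapped E9.5 (-0.22 ± 0.17, adjusted p = 0.25). Ogg1 shares 10.6% of its exonic length with Camk1 on the opposite strand, which went from 17.6 ± 2.29 to 50.9 ± 12.8 and 218 ± 48.2 CPM. Reads of these 2 genes in the shared stretch cannot be told apart. On the log2 scale the ratio of Ung to Ogg1 was 2.18 ± 0.11, 0.65 ± 0.31 and -2.04 ± 0.16 (adjusted p = 0.00765).

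Mutyh, which removes adenine opposite oxidised guanine, had 21.2, 22.6 and 22.2 CPM, then 5.58, 5.68 and 6.33, then 2.43, 1.97 and 3.30. It was 8.55-fold lower at P60 than at E9.5 (-3.10 ± 0.20, adjusted p = 8.2e-08). Neil2 stood low throughout, with 2.81, 2.95 and 2.55 CPM, then 1.57, 1.32 and 1.32, then 4.07, 2.82 and 3.80. It fell to E14.5 (-0.98 ± 0.22, adjusted p = 0.0022) and rose from there to P60 (1.34 ± 0.21, adjusted p = 0.00018), ending within reach of E9.5 (0.36 ± 0.21, adjusted p = 0.13). The difference between P60 and E9.5 was called with upper quartile scaling and without replicate 2 of P60 (0.51 to 0.52, adjusted p 0.031 to 0.043).

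Polb, the polymerase that fills the gap after base removal, was among the few genes that were higher in the adult. It had 36.7, 29.6 and 29.5 CPM at E9.5, then 92.3, 49.4 and 48.6 at E14.5, and then 81.9, 62.9 and 88.6 at P60. Every later library lay above E9.5, and replicate 1 of E14.5 stood far above the other 2 of its stage. Polb was 2.44-fold higher at P60 than at E9.5 (1.29 ± 0.25, adjusted p = 0.00062). The rise to E14.5 was 0.99 ± 0.25 (adjusted p = 0.0051) and, without that library, 0.63 (adjusted p = 0.0084). From E14.5 to P60 the change was 0.29 ± 0.25 (adjusted p = 0.30), or 0.66 without it (adjusted p = 0.0057).

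The other factors of this pathway fell. Parp1, which senses strand breaks and marks them with poly(ADP-ribose), had 594, 651 and 627 CPM at E9.5, then 210, 254 and 262 at E14.5, and then 85.3, 95.9 and 83.3 at P60 (-2.82 ± 0.15, adjusted p = 1.8e-08). Parp2, its smaller relative, fell less, from 65.1 ± 3.79 to 35.5 ± 8.47 and 24.3 ± 3.28 CPM (-1.42 ± 0.18, adjusted p = 2.3e-05). The log2 ratio of Parp1 to Parp2 was 3.24 ± 0.14, 2.75 ± 0.49 and 1.82 ± 0.29 (adjusted p = 0.00765, and 0.0536 to 0.0589 without replicate 2 or 3 of E9.5 or replicate 1 or 3 of P60). Xrcc1, the scaffold of single-strand break repair, had 176, 135 and 138 CPM, then 92.6, 58.2 and 58.8, then 27.0, 29.4 and 25.7. Lig3, the ligase it holds, had 90.7, 117 and 113 CPM, then 38.9, 68.1 and 66.7, then 13.9, 17.4 and 14.6. It shares 25.1% of its exonic length with Rffl on the opposite strand, which had 13.7 ± 2.51 CPM at P60. In replicate 1 of both embryonic stages Xrcc1 was high and Lig3 low, and the log2 ratio of the pair, 0.48 ± 0.41, 0.28 ± 0.83 and 0.80 ± 0.10, was not found to differ (adjusted p = 0.49). Apex1, the nuclease that cuts at the empty site, went from 76.9 ± 12.9 to 33.6 ± 9.25 and 18.3 ± 3.68 CPM (-2.07 ± 0.23, adjusted p = 7e-06). It shares 61.7% of its exonic length with Pip4p1 on the opposite strand, which was at 101 ± 9.89 CPM at P60, so its level is uncertain.

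In nucleotide excision, 2 of 9 genes fell to E14.5, 1 rose and 6 were not called, which is 22.2% lower and 11.1% higher beside 30.7% and 34% of all genes. From E14.5 to P60, 6 fell (66.7%, against 39.4% of all genes) and 0 rose. Ercc1, the partner of the nuclease that cuts on the 5′ side of a lesion, had 38.6, 32.0 and 30.7 CPM at E9.5, then 35.8, 28.5 and 27.8 at E14.5, and then 30.7, 27.1 and 31.9 at P60. All 3 stages overlapped, and no comparison passed the test (-0.14 ± 0.15, -0.04 ± 0.15 and -0.17 ± 0.15, adjusted p = 0.45, 0.84 and 0.31). It was the only member called in none of the 3 comparisons. Ercc4, which encodes that nuclease, had 23.7 ± 1.01, 25 ± 0.331 and 18.5 ± 4.11 CPM, and its decrease from E14.5 to P60 (-0.44 ± 0.16, adjusted p = 0.031) was lost under 9 alternatives, among them leaving out replicate 2 or 3 of E14.5 or replicate 1 or 3 of P60 (-0.44 to -0.28, adjusted p 0.063 to 0.11). Their log2 ratio, Ercc1 over Ercc4, was 0.48 ± 0.23, 0.27 ± 0.21 and 0.68 ± 0.42 (adjusted p = 0.359).

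In the transcription-coupled branch, Ercc6 and Ercc8 had first steps of similar size, and Ercc6 fell more in the second. Ercc6, the CSB protein that recognises a stalled RNA polymerase, had 49.6, 58.8 and 59.3 CPM at E9.5, then 31.4, 44.3 and 46.4 at E14.5, and then 7.53, 10.1 and 4.07 at P60. The first step was not called (-0.46 ± 0.27, adjusted p = 0.16), but it was with only the 2 stages compared in the fit (-0.47, adjusted p = 0.042). The second step was 5.62-fold (-2.49 ± 0.29, adjusted p = 1.7e-05). Ercc8, the CSA protein that joins it in a ubiquitin ligase, had 35.9, 35.7 and 34.3 CPM, then 28.2, 26.4 and 24.2, then 16.6, 16.5 and 20.4. Its fall in all was 1.98-fold (-0.99 ± 0.14, adjusted p = 4.5e-05), with a first step of -0.43 ± 0.14 (adjusted p = 0.017) that was lost without the filter on low counts and without replicate 1 or 2 of E9.5 or replicate 2 or 3 of E14.5 (-0.42 to -0.36, adjusted p 0.053 to 0.079). Ercc6 over Ercc8, as a log2 ratio, was 0.64 ± 0.17, 0.59 ± 0.40 and -1.26 ± 0.74 (adjusted p = 0.0482, and above 0.05 without replicate 2 or 3 of E9.5 or replicate 1 of P60). Ercc6 varied with the library even within the adult stage.

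Among the other excision genes, Xpc, which scans the genome for distortions, went from 45 ± 4.94 to 38.8 ± 2.69 and 13.5 ± 1.76 CPM, and Ercc5, the nuclease on the 3′ side, from 50 ± 0.613 to 57.6 ± 5.68 and 18.6 ± 0.752. Ercc2 and Ercc3 encode the 2 helicases of TFIIH, the complex shared with transcription. Ercc2 had 47.5, 47.0 and 47.8 CPM, then 41.2, 41.9 and 42.3, then 9.90, 12.4 and 6.75. It was not called to E14.5 (-0.18 ± 0.19, adjusted p = 0.41) and fell 4.32-fold from E14.5 to P60 (-2.11 ± 0.20, adjusted p = 3e-06). Ercc2 shares 24.6% of its exonic length with Gm26852 and 17.8% with Klc3 on the opposite strand, which had 0.0836 ± 0.0728 and 2.81 ± 0.225 CPM at P60. Ercc3 had the other order, with 75.3 ± 3.83, 43.3 ± 1.10 and 52.0 ± 3.08 CPM: it fell to E14.5 (-0.80 ± 0.12, adjusted p = 0.00014), and the later difference was 0.26 ± 0.12 (adjusted p = 0.061). That later difference was called under 4 alternatives, among them DESeq2 (0.28 to 0.43, adjusted p 0.0021 to 0.042). Xpa, which checks the opened lesion, had 11.2, 8.66 and 8.71 CPM, then 24.0, 12.1 and 13.5, then 11.2, 9.90 and 12.8. Its rise to E14.5 (0.79 ± 0.25, adjusted p = 0.017) was not called without replicate 1 of E14.5 (0.43, adjusted p = 0.054), nor without replicate 2 or 3 of E9.5 (adjusted p up to 0.06).

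All 5 signalling genes fell in both steps, where 30.7% and 39.4% of all genes fell. Atm, the kinase that answers double-strand breaks, had 72.5, 111 and 110 CPM at E9.5, then 20.7, 45.2 and 46.4 at E14.5, and then 4.30, 7.14 and 4.36 at P60 (-4.21 ± 0.36, adjusted p = 7.9e-07). Atr, the kinase that answers stalled forks, had 56.8, 79.5 and 79.9 CPM, then 25.4, 35.7 and 38.3, then 6.83, 7.64 and 6.98 (-3.33 ± 0.21, adjusted p = 6.2e-08). Both are long transcripts and were lowest in replicate 1 of each embryonic stage. Without replicate 1 of E14.5 the first step of Atm was -1.09 (adjusted p = 0.0036) in place of -1.39 ± 0.31 (adjusted p = 0.0026). The log2 ratio of Atr to Atm was -0.43 ± 0.07, -0.11 ± 0.34 and 0.41 ± 0.28 (adjusted p = 0.0536, and 0.0292 without replicate 1 of E14.5 or 0.0491 without replicate 2 of P60).

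Chek1, the effector of ATR in S phase, had 64.7, 73.1 and 74.6 CPM at E9.5, then 18.1, 14.2 and 15 at E14.5, and then 0.867, 0.793 and 1.09 at P60, a 76.8-fold fall (-6.26 ± 0.20, adjusted p = 6.7e-10). Chek2, the effector of ATM, had 30.7, 40.3 and 38.7 CPM, then 5.97, 7.39 and 8.89, then 3.17, 3.08 and 4.07, a 10.6-fold fall (-3.41 ± 0.21, adjusted p = 5.1e-08). To E14.5 the log2 fold changes of Chek1 and Chek2 were -2.16 ± 0.15 and -2.30 ± 0.19, and from there to P60 they were -4.10 ± 0.19 and -1.11 ± 0.20. Their log2 ratio, Chek1 over Chek2, was 0.94 ± 0.11, 1.0 ± 0.40 and -1.21 ± 0.06 (adjusted p = 0.0482, and above 0.05 without replicate 2 or 3 of E9.5 or replicate 1 of P60). Trp53, which encodes the p53 transcription factor, had 238, 223 and 218 CPM, then 109, 78.8 and 81.0, then 16.2, 18.8 and 16.4, and kept 7.57% of its E9.5 level at P60 (-3.72 ± 0.17, adjusted p = 6.4e-09).

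**Figure D4:**
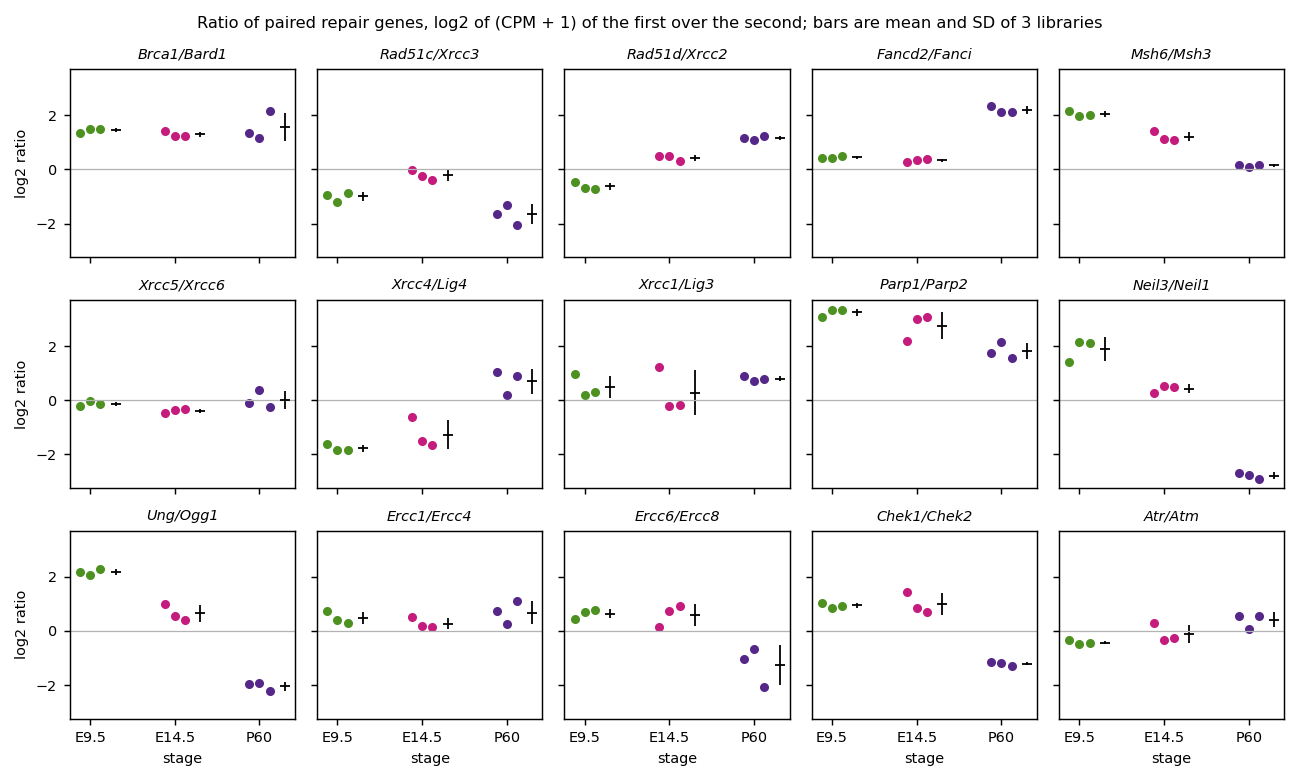
Points give the log2 ratio of 2 partner genes on CPM + 1 in each library, by stage, with the mean and SD of 3 libraries beside them. The means of Neil3/Neil1, Ung/Ogg1, Ercc6/Ercc8 and Chek1/Chek2 cross 0 downward and those of Rad51d/Xrcc2, Xrcc4/Lig4 and Atr/Atm upward, while Brca1/Bard1 stays between 1.15 and 2.16. Ratios are not scaled by gene length, so the stage at which they cross 0 depends on it.

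The ratios carry 1 added CPM, so those with a gene near or below 1 CPM lean on it. Of the 15 pairs, 10 differed between stages in the exact permutation test at an adjusted p under 0.05, and the smallest p this design can give is 0.00357. Partners of a complex did not always keep their ratio: those of Fancd2 with Fanci, Rad51d with Xrcc2 and Xrcc4 with Lig4 differed by more than 1 log2 unit between E9.5 and P60.

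Because longer transcripts collect more counts, levels of different genes were compared per kilobase of exonic length. At E9.5 the most expressed were Parp1 (118 CPM per kb), Msh6 (63.1), Trp53 (55.9) and Apex1 (54.1). The order at E14.5 was Parp1 (45.8), Apex1 (23.6), Trp53 (22.1), Msh6 (20.0) and Polb (16.1). At P60 it was Polb (19.7), Ercc3 (18.3), Parp1 (16.7), Apex1 (12.9, with the overlap named above) and Xrcc5 (11.2). Neil3 (0.0206), Exo1 (0.0269), Rad54l (0.0635), Fanca (0.0865) and Bard1 (0.0927) were the lowest in the adult.

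The wider repair machinery, 92 further genes listed by pathway, also fell for the most part. From E9.5 to E14.5, 64 fell and 7 rose (69.6% and 7.61%, against 30.7% and 34% of all genes). Between E14.5 and P60, 58 fell and 16 rose (63.0% and 17.4%, against 39.4% and 36.7%), and 73 were lower and 11 higher at P60 than at E9.5 (79.3% and 12%, against 40.6% and 42%), with median log2 fold changes of -0.92, -0.78 and -1.62. In recombination, 19 of 20 were lower over the whole interval, most of all the helicase Brip1 (-8.80 ± 0.44, adjusted p = 1.1e-08, 6 reads left in the adult) and Eme1 (-8.55 ± 0.22, adjusted p = 3.8e-10). Mus81, which encodes the nuclease partner of EME1, was higher (0.52 ± 0.16, adjusted p = 0.0099). All 8 further Fanconi genes were lower, with Ube2t at -3.76 ± 0.26 and Usp1 at -2.67 ± 0.12. Among the further mismatch genes, Pms1 fell (-2.23 ± 0.17) and Mlh3 rose (0.64 ± 0.13, adjusted p = 0.001).

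Of 9 end joining genes, 6 were lower and 3 higher at P60 than at E9.5 (66.7% and 33.3%, against 40.6% and 42% of all genes). Paxx, a KU-binding paralog of XRCC4, had the largest rise of any repair gene examined, from 305 reads in the 3 E9.5 libraries to 3269 at E14.5 and 9135 at P60 (4.81 ± 0.25, adjusted p = 1.7e-08). Aptx, which removes stalled adenylates, was higher by 0.63 ± 0.14, whereas Tdp1 (-2.05 ± 0.14) and Aplf (-1.88 ± 0.20) were lower. In base excision, 7 of 10 were lower and 1 higher (70% and 10%). Foremost of the lower were the replicative ligase Lig1 (-4.51 ± 0.24) and the flap nuclease Fen1 (-3.16 ± 0.32). The higher gene was Parp3 (1.79 ± 0.19, adjusted p = 5e-06). Nucleotide excision had 10 of 17 lower and 4 higher (58.8% and 23.5%). Among them were the TFIIH subunits Gtf2h5 (1.29 ± 0.23) and Ccnh (1.08 ± 0.16) on the higher side and Rpa2 (-2.76 ± 0.24) and Uvssa (-2.71 ± 0.20) on the lower. From E14.5 to P60, 8 of these 17 rose and 5 fell (47.1% and 29.4%, against 36.7% and 39.4% of all genes).

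Of 10 genes of lesion bypass and direct reversal, 7 were lower and 1 higher at P60 than at E9.5. These are 70% and 10%, against 40.6% and 42% of all genes. The higher gene was the polymerase Polk (0.47 ± 0.16, adjusted p = 0.016). Rad18 was lower by 2.62 log2 units (-2.62 ± 0.15), and Rev3l, the catalytic subunit of polymerase zeta, rose to E14.5 (1.04 ± 0.26, adjusted p = 0.0049) before it fell to P60 (-3.57 ± 0.29, adjusted p = 1e-06). Of 14 signalling partners 13 were lower (92.9%). Clspn, the mediator between ATR and CHEK1, was at -7.93 ± 0.22 (adjusted p = 4.5e-10), and Atrip, the partner of ATR, was reduced from 108 reads at E9.5 to 2 at P60.

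Of 14 known targets of p53, 5 rose and 5 fell to E14.5 (35.7% each, against 34% higher and 30.7% lower among all genes), and 4 were higher and 8 lower at P60 than at E9.5 (28.6% and 57.1%, against 42% and 40.6%). The shares to E14.5 are near those of all genes. Their summed level was 548 to 577 CPM at E9.5, 625 to 648 at E14.5 and 606 to 618 at P60. Phlda3 (2.82 ± 0.17, adjusted p = 5e-08) and Plk2 (2.18 ± 0.12, adjusted p = 3.1e-08) had the largest rises and Eda2r (-3.43 ± 0.34, adjusted p = 3.2e-06) and Aen (-1.83 ± 0.13, adjusted p = 1.9e-07) the largest falls. These genes also answer to other factors, and the list was not tested as a set.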

How the data were processed

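Per the labels' protocols, total RNA of dissected tissue was made into cDNA with an ultra-low-input poly(A)-priming kit and amplified by PCR. The values the authors deposited are raw counts for each gene. Trimmomatic 0.36, STAR 2.5.2b and the mm10 genome stand in the submitters' processing notes, whereas how reads were counted (program, annotation, strand) is not given in the sources used here. Reads of a gene and of one overlapping it on the other strand can therefore not be told apart, and 24 of the 54 genes share some exonic bases with another gene, 8 of them at least 10%. Symbols and exonic lengths came from GENCODE M21 (GRCm38).

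Counts were analysed in R 4.3.3 with edgeR 4.0.16 (1 robust quasi-likelihood fit of all 9 libraries by stage after TMM scaling and filterByExpr, two-sided tests, threshold 0.05). SE was derived from the fold change and the F statistic. The biological coefficient of variation was 19.9%, so the spread between libraries, not depth, limits abundant genes. Pair ratios used CPM + 1 and the F statistic in an exact permutation test, adjusted over 15 pairs. Scripts were tested on simulated data. Alternatives were other scalings, filters, DESeq2 1.42.0, a replicate block, fits of 2 stages, another pseudocount and each library left out.

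Members, lists and tests were chosen with earlier results of these data known. Genes named by rule were, per list, the 3 largest changes of P60 against E9.5, the smallest, any called against the list's majority and both genes of each pair; the other members are given for completeness. Of the wider lists, up to 2 called genes per direction with the largest change of P60 against E9.5 are named. A gene that this rule names is not reported here. Lists were described by counts and medians and not tested.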

Additional observations from a re-analysis of the deposited data

How the results depend on the processing

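No called difference of the 54 genes changed sign under any alternative run. Uncalled values near 0 did for Ercc1 (-0.17 to 0.13), Xrcc2 (-0.13 to 0.17) and Xrcc6 (-0.30 to 0.01) from E14.5 to P60 and for Ercc4 to E14.5 (-0.01 to 0.17). Of 138 calls in the 3 comparisons, 13 were lost under at least 1 alternative, all named in the report except Parp2 from E14.5 to P60 (-0.48 to -0.38, lost with upper quartile scaling and with only 2 stages in the fit). Uncalled results of Ercc3, Ercc4, Ercc6, Neil2, Polb, Prkdc, Xpa and Xrcc5 gained a call under at least 1 alternative. Counts of genes moved as follows. With a 2-fold minimum, end joining and excision genes that were lower at E14.5 than at E9.5 numbered 9 in place of 16 and those higher 1 in place of 4. From E14.5 to P60, replication-linked genes that rose were 3, and 1 with library totals as the scale, 0 with a 2-fold minimum and 1 to 3 with a library left out (1 without replicate 2 of E14.5, replicate 1 of P60 or replicate 3 of P60). End joining and excision genes that rose in that step were 3, and 5 with the median-of-ratios scale, with upper quartile scaling or with DESeq2, 1 with a 2-fold minimum and 1 to 4 with a library left out (1 without replicate 2 of E14.5 or replicate 3 of P60). The 1 replication-linked gene higher at P60 than at E9.5, Rad51d, became 0 with library totals or a 2-fold minimum and 0 to 1 with a library left out (0 without any replicate of E9.5, replicate 2 or 3 of E14.5, or replicate 3 of P60).

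For the pair ratios, values are the P60 mean minus the E9.5 mean on the log2 scale. With a pseudocount of 0.1 CPM, Brca1/Bard1 (1.21, adjusted p = 0.0119) and Atr/Atm (0.91, adjusted p = 0.0491) passed the exact permutation test. With libraries left out, Parp1/Parp2 ranged from -1.58 to -1.29, Ercc6/Ercc8 from -2.21 to -1.49, Chek1/Chek2 from -2.20 to -2.09, Atr/Atm from 0.75 to 1.0 and Xrcc5/Xrcc6 from -0.05 to 0.25. The first 3 missed the threshold without replicate 2 or 3 of E9.5 or replicate 1 of P60, and Parp1/Parp2 also without replicate 3 of P60. Atr/Atm passed it without replicate 1 of E14.5 or replicate 2 of P60, and Xrcc5/Xrcc6 without replicate 2 or 3 of P60. The cause was not tested.

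Same-numbered libraries of different stages deviated together unevenly, with correlations of 0.37, 0.141 and 0.209 between E9.5 and E14.5, 0.096, 0.114 and -0.1 between E9.5 and P60, and 0.171, 0.337 and -0.224 between E14.5 and P60, so the numbers were not taken as pairs. With the replicate number as a block, 160 of 162 gene results stayed on the same side of the threshold and 2 gained a call. The pair tests, whose smallest possible p is then 0.0278, gave Ercc6/Ercc8 -1.90 (adjusted p = 0.139), Chek1/Chek2 -2.15 (adjusted p = 0.125) and Atr/Atm 0.84 (adjusted p = 0.0463). Scaling moved the median of all genes: upper quartile scaling gave 0.10 for P60 against E14.5 and 0.20 for P60 against E9.5, and library totals -0.20 for P60 against E14.5, beside -0.06 and 0.05 with the scaling used. Adult levels of Exo1 and Neil3 rest on 22 and 11 reads.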
